A study of Mus musculus with 2 samples.

Results

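Crowded domains were stretches of chromosome between neighbouring contact boundaries that held 10 or more protein-coding gene starts. They were chosen by the measured positions of the boundaries and by the reference gene annotation. A domain ran from the midpoint of a deposited boundary interval to the midpoint of the next interval on the same chromosome, on the 19 autosomes. A gene start was the 5′ end of a protein-coding gene record in GENCODE M21 on GRCm38. Of 7391 autosomal domains, 401 met the rule, which is 5.43%. Because length and gene count enter the rule, and because border scores come from the same call as the border positions, these are given below as descriptions without a test.

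The boundaries came from in situ Hi-C, a genome-wide count of which DNA fragments touch inside the fixed nucleus. Pups of the FVB/NTac mouse strain, of mixed sex, gave the olfactory epithelium, and cells with GFP from an Ngn1-GFP reporter were taken by FACS as immediate neuronal precursor cells, with modifications and treatments listed as none. There was a single group with 2 biological replicates, of 2200000 and 2100000 cells, crosslinked with 1% formaldehyde and digested with DpnII. Contacts of both were combined before boundaries were called, which leaves every value without a replicate error and the depth of the calls unknown. GFP was driven by Ngn1 (Neurog1), so the sort selected cells with activity of that gene, and expression itself was not measured. The cells are of another strain than the reference, so copy number differences of gene arrays between strains were not seen here.

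Mammalian chromosomes fold into domains within which contacts are frequent, and boundaries between domains often carry binding sites of CTCF, a zinc-finger protein that halts the ring-shaped cohesin complex as it extrudes loops. Genes come to lie densely in different ways. Duplication in tandem makes arrays of related genes, such as the receptors for odours and pheromones, each usually switched on in few cells. Housekeeping genes, which every cell needs for making proteins, energy and membranes, also tend to lie close together, and their promoters are typically CpG islands, GC-rich stretches that keep their CG dinucleotides.

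Examples of the sequence at gene starts are given first. They were picked as illustrations from unlike kinds of region and do not measure a difference between classes. The first set below shows the whole interval between a pair of starts that face away from each other in 3 mixed domains, and CG dinucleotides are in capitals. Skiv2l (an RNA helicase of exosome-linked decay) and Nelfe (a subunit of the complex that pauses RNA polymerase II) share chr17:34850211-34850390. Drap1 (a repressor of transcription initiation) and AI837181 share chr19:5424980-5425143, and Rom1 (a photoreceptor disc protein) and Eml3 (a microtubule-binding protein) share chr19:8929357-8929551. These intervals of 180, 164 and 195 bases held 23, 15 and 12 CG dinucleotides at a GC content of 70%, 65.9% and 64.6%. All are from GRCm38, plus strand.
Skiv2l/Nelfe: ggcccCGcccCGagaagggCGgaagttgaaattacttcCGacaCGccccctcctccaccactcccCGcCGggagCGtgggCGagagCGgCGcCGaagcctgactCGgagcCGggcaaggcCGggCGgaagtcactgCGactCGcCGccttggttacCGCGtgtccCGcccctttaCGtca
Drap1/AI837181: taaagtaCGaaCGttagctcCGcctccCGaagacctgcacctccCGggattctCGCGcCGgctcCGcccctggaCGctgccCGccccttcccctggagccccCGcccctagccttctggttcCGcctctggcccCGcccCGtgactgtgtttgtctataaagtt
Rom1/Eml3: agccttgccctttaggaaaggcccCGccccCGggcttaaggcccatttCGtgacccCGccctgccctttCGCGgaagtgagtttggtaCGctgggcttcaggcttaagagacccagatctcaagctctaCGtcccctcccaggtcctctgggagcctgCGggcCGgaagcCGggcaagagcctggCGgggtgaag

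The second set shows the 150 bases before the start of a gene from the middle of 3 tandem arrays, on the gene's own strand of GRCm38. They are Olfr153 (an olfactory receptor, chr2:87531646-87531795, plus strand), Vmn1r127 (a pheromone receptor of the vomeronasal organ, chr7:21319862-21320011, minus strand) and Krt13 (a type I keratin of stratified epithelia, chr11:100121567-100121716, minus strand). They held 0, 1 and 2 CG dinucleotides at a GC content of 22.7%, 38.7% and 57.3%. Over all autosomal gene starts, 42.5% had a CpG island promoter by the measure used below.
Olfr153: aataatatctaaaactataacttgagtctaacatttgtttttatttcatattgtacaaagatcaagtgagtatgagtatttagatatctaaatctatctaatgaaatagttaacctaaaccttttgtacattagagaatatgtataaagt
Vmn1r127: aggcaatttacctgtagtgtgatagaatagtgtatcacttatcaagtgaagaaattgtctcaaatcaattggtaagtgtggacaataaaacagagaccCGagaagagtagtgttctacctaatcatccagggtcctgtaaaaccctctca
Krt13: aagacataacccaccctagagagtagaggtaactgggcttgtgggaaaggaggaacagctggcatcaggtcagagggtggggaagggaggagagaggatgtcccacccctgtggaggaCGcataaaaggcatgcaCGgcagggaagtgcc

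Some borders of these domains lay at a CTCF core motif. The set below shows 30 bases around the core match nearest the border midpoint, with the core in capitals, read along the strand of the match. At the right border of the domain that includes Ly6c1 (a surface antigen), the core lay at chr15:75088241-75088252 on the minus strand, and the score was 1.65. The weak right border of the domain of Olfr544 to Olfr553, with a score of 0.435, had its core at chr7:102636910-102636921 on the minus strand. At the mixed domain's right border near Atf6b (a transcription factor of the unfolded protein response), with a score of 0.310, the core was at chr17:34654078-34654089 on the plus strand. Cores thus stood at strong and at weak borders.
Ly6d-Ly6c1, right: tctgcttggCCAGCAGGTGGCagattctcc
Olfr544-Olfr553, right: taaccctttCCAGTAGAGGGCgccaaacct
Notch4-Atf6b, right: catagagaaCCAGCAGGGGGCgctaaggga

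Crowded domains made up 176 Mb of the 2387 Mb in domains, or 7.38%, and held 6080 of the 20807 autosomal protein-coding gene starts, or 29.2%. Their spread over chromosomes was uneven. Chromosome 7 had 56 of them, 12.7% of its 440 domains, and chromosome 17 had 33 of 290 domains, or 11.4%. Chromosome 11 followed with 40 of 446, or 8.97%. The lowest shares were on chromosome 18, with 4 of 277 domains (1.44%), and chromosome 12, with 6 of 339 (1.77%). Of the 56 on chromosome 7, 21 were led by a gene family and 28 were mixed.

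Domains just inside and just outside the threshold were alike in length. The 98 domains with 9 starts had a median length of 290 kb and a median mean border score of 0.770, the 75 domains with 10 starts 265 kb and 0.762, and the 63 domains with 11 starts 275 kb and 0.662. The score, the authors' own value for each boundary, is higher for stronger insulation, and is averaged here over both borders of a domain. The weak class of the deposited list begins at a score of 0.2 and the strong class at 0.5.

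The median crowded domain was 330 kb long (quartiles 240 and 435 kb), against 265 kb for all autosomal domains and 250 kb for the 987 domains with 5 to 9 starts. The middle number of starts was 13, and the median density was 43.8 starts per Mb, against 25.0 per Mb in domains with 5 to 9 starts. Density spanned a wide range. The densest was the cluster of replication-dependent histone genes on chromosome 13, from Hist1h2af to Trim38, with 30 starts in 240 kb (125 per Mb). The mixed domain from Gng13 to Rhbdl1 on chromosome 17 had 16 starts in 135 kb (119 per Mb). At the other end, the Skint genes on chromosome 4, which encode immunoglobulin-like proteins of skin and thymus, gave 10 starts in 1865 kb (5.36 per Mb). Crowded domains thus included short packed ones and long ones that reached 10 starts through their length.

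**Figure D1:**
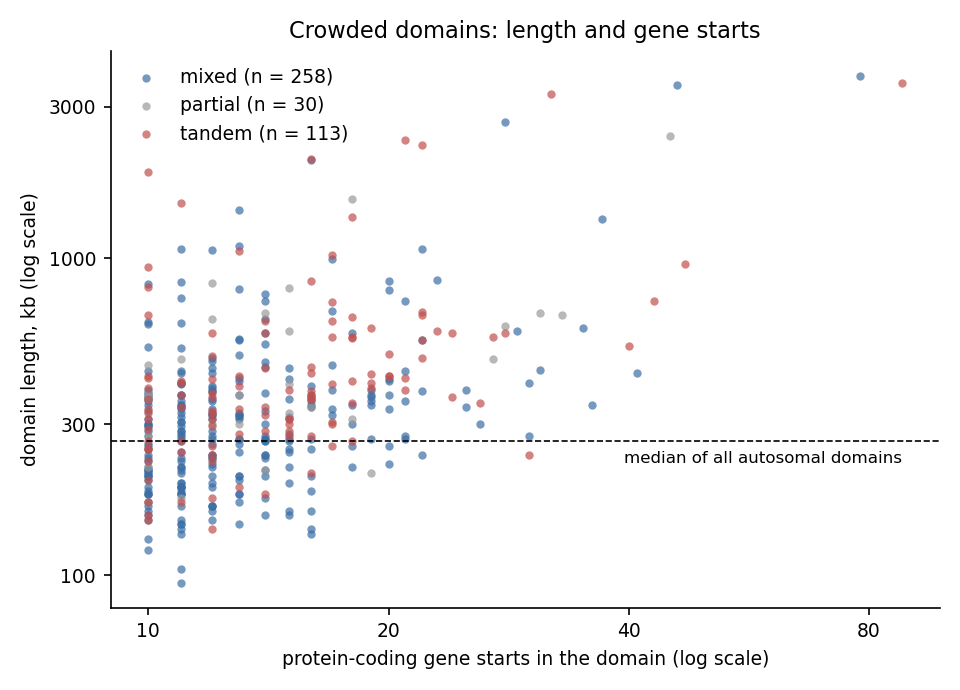
Each point is a crowded domain, with its protein-coding gene starts on the horizontal axis and its length in kb on the vertical axis, both log scales, coloured by class; the dashed line is the median of all autosomal domains, 265 kb. Most domains lie between 10 and 20 starts, and the domains with the most starts, 88 and 78, are 3560 and 3745 kb long.

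Classes were assigned from gene symbols. A domain was called tandem where the largest gene family held at least 50% of its starts, mixed where it held under 30%, and partial in between. This gave 113 tandem domains (28.2%, 95% Wilson interval 24.0 to 32.8%), 258 mixed and 30 partial ones. As a second view, proteins within a domain were joined where they had at least 40% identity over at least 50% of the shorter protein. Both views gave tandem for 95 domains and mixed for 233. Another 14 domains were mixed by symbol and tandem by protein, and 77.4% of their 301 starts had only provisional names (Gm numbers and Rik clones). The domain from Dydc1 to Gm8267 on chromosome 14, with 78 starts, was of this kind, with 66 of its proteins in a single similarity group. The reverse, tandem by symbol and mixed by protein, held for 11 domains, among them 3 of the 4 Hox domains and the histone domain from Hist1h2af to Trim38, where fewer than 30% of the proteins fell in a single similarity group.

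The 258 mixed domains had a median length of 295 kb and held 3702 starts, with a median of 12 and a density of 47.3 per Mb. Genes of 11 housekeeping lists, chosen by symbol, were in 137 of them (53.1%, 95% Wilson interval 47.0 to 59.1%), against 4 of 113 tandem domains (3.54%) and 634 of all 7391 domains (8.58%). A domain with more starts has more chances to hold a list member, so the share of starts is the closer comparison. List members were 200 of the 3702 starts of mixed domains (5.40%), 4 of the 1885 starts of tandem domains (0.212%) and 3.74% of the starts of all domains. In domains with 5 to 9 starts they were 4.73% of the starts. The low tandem share is partly set by the class rule, which requires a single family to hold at least 50% of the starts. Symbol stems such as Rps, Mrpl and Eif did not count as families. Of 771 autosomal list members, 216 (28.0%) lay in crowded domains, near the 29.2% of all gene starts that did. Of these 216, 200 lay in mixed, 12 in partial and 4 in tandem domains.

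By list, the share in crowded domains ran from 20 to 36.7%. The proteasome list, mostly subunits of the particle that degrades tagged proteins, had 18 of 49 members in crowded domains (36.7%). Among them were Psmb8 and Psmb9 in the histocompatibility region and Psmd2, Psmd3 and Psmc4 elsewhere. The 18 also included Psmc3ip, which matches by symbol and is not a subunit. Any of the lists can hold such symbol matches, so their shares are approximate. RNA polymerase and Mediator subunits had 30 of 99 (30.3%), spliceosome proteins 21 of 70 (30%) and the respiratory chain with ATP synthase 28 of 93 (30.1%). Cytosolic ribosomal proteins had 22 of 80 (27.5%) and mitochondrial ones 22 of 78 (28.2%). The lowest share was that of RNA decay and export, with 10 of 50 (20%). For cytosolic ribosomal proteins, 20 of the 22 were in mixed and 0 in tandem domains.

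Single mixed domains brought unrelated housekeeping tasks together. The domain from Eif2b5 to Fam131a on chromosome 16 had the most list members, 5 among 13 starts in 205 kb. They were Eif2b5 and Eif4g1 (translation initiation), Eef1akmt4, Ap2m1 (the clathrin adaptor of endocytosis) and Psmd2 (a proteasome subunit). Its border scores were 0.722 and 0.233. On chromosome 19, the domain from Slc3a2 to Eef1g placed 30 starts in 275 kb, between borders scoring 1.71 and 0.996. It held Nxf1 (mRNA export), Polr2g (RNA polymerase II), Taf6l and Eef1g (translation elongation), and 13 of its starts had a CpG island promoter. The domain from Psmd3 to Cdc6 on chromosome 11 held Psmd3 (proteasome), Med24 (Mediator) and Cdc6 (licensing of DNA replication) among 10 starts in 235 kb, with border scores of 1.22 and 0.485.

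The mixed domain with the most starts by both views was that of Tor4a to Tmem141 on chromosome 2, with 41 starts in 435 kb and border scores of 0.353 and 1.26. CpG island promoters stood at 20 of them. It included Grin1, the obligatory subunit of NMDA receptors, Anapc2, a core subunit of the anaphase-promoting complex, Ptgds, a prostaglandin synthase, and Tubb4b, a tubulin of cilia. It held no member of the 11 lists. The domain of Stk19 to Prrc2a, in the class III part of the histocompatibility region on chromosome 17, had 36 starts in 345 kb, 15 with a CpG island, and weak borders on both sides (0.346 and 0.238). It ranged from the complement genes C2 and Cfb to the heat-shock genes Hspa1a and Hspa1b and the tRNA synthetase gene Vars. The shortest crowded domain of all, from Notch4 to Atf6b in the same region, had 11 starts in 95 kb. The mixed domains with the highest mean scores were those of Efcab14 to Nsun4 (2.58 and 0.936), Mepce to Mblac1 (2.15 and 1.18) and Ttc34 to Morn1 (1.84 and 1.45). The lowest were those of Gstz1 to Snw1 (0.208 and 0.252), Ezr to Unc93a2 (0.241 and 0.228) and Zfp119b to Ubxn6 (0.291 and 0.237). Strong and weak borders thus both occurred around mixed domains. The 3 highest were 365, 415 and 255 kb long and the 3 lowest 380, 840 and 130 kb.

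The 113 tandem domains were led by 36 families, 25 of which led a single domain. Olfactory receptors, the odour receptors of which each sensory neuron finally expresses a single allele, led 52 of them. These 52 held 807 of the 1128 autosomal receptor starts (71.5%), and receptor starts lay in 133 domains in all. Their lengths ran from 150 to 955 kb with a median of 385 kb. The domain from Olfr1100 to Olfr1154 on chromosome 2 had 47 starts, 45 of them receptors, in 955 kb, and both borders were weak (0.302 and 0.288). The domain from Olfr998 to Olfr1053 on the same chromosome had 43 starts, all receptors, in 735 kb (0.876 and 0.378). Of the 52, 7 had strong borders on both sides (13.5%) and 20 had none (38.5%). The strongest single border of any crowded domain, 2.90, was also theirs, at the right end of Olfr348 to Olfr368, whose left border scored 0.248.

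Pheromone receptors gave longer domains. Vomeronasal receptors of type 1 led 9 domains with a median length of 635 kb, which held 151 of 208 autosomal members (72.6%). The domain from Nlrp9b to Vmn1r167 on chromosome 7 had the most starts of any domain, 88, in 3560 kb, with border scores of 0.516 and 0.237. Of its starts, 50 were named as receptors of this type, 35 had provisional names and 0 had a CpG island promoter. Vomeronasal receptors of type 2 led a single domain, from Aurkc to Vmn2r52, of 3300 kb with 32 starts and strong borders on both sides (0.828 and 1.31). Trace amine receptors, which sense volatile amines, were all 15 in a single domain of 350 kb, with borders of 1.18 and 1.01. The bitter taste receptors had 18 of 35 members in a domain of 675 kb (0.349 and 1.01).

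Other families led fewer domains each. Keratins, the intermediate filaments of epithelia, led 2 domains with strong borders throughout. That of type I, from Krt33a to Krt42 on chromosome 11, held 15 keratin starts, all on the minus strand, in 310 kb, and its right border scored 2.61. Keratin-associated proteins of hair led 4 domains of 140 to 310 kb, with a median mean score of 0.368. Major urinary proteins, which carry pheromones in urine, were all 22 in a domain of 2265 kb (1.48 and 0.426). Kallikreins, serine proteases of gland secretions, had 16 of 27 members in a domain of 380 kb (0.333 and 0.592), and all of its starts lay on the same strand. Beta defensins, antimicrobial peptides, led 2 domains, and serpins, inhibitors of proteases, another 2. Zinc-finger genes with a Zfp name led 7 domains which held 68 of 385 autosomal members (17.7%), and members lay in 204 domains in all.

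Developmental clusters formed another set. All 39 Hox genes, the transcription factors that set position along the body axis, lay in 4 tandem domains. The Hoxd domain, from Evx2 to Hoxd1, was 170 kb long with border scores of 0.785 and 0.423. The Hoxb domain, from Gip to Hoxb1, was 360 kb long (0.689 and 0.277), and the Hoxc domain, from Hoxc13 to Smug1, 425 kb (1.27 and 1.20). CpG island promoters stood at 22 of the 51 starts in these domains, of which 39 were Hox genes. The 2 histone domains, of 350 and 240 kb, did not adjoin each other. They had strong borders on all sides and held 51 of 71 autosomal histone starts. Of their 56 starts, 12 had CpG islands. The left border of the domain from Hist1h2af to Trim38 lay inside the array, between Hist1h4h and Hist1h2af (0.644). The clustered protocadherins, neuronal adhesion proteins that give a cell its surface identity, led another 2 domains. The alpha genes from Pcdha1 to Pcdha12 filled a domain of 275 kb (2.08 and 0.303), and the beta genes with gamma genes up to Pcdhgb7 another of 530 kb with 40 starts (1.21 and 0.203).

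**Figure D2:**
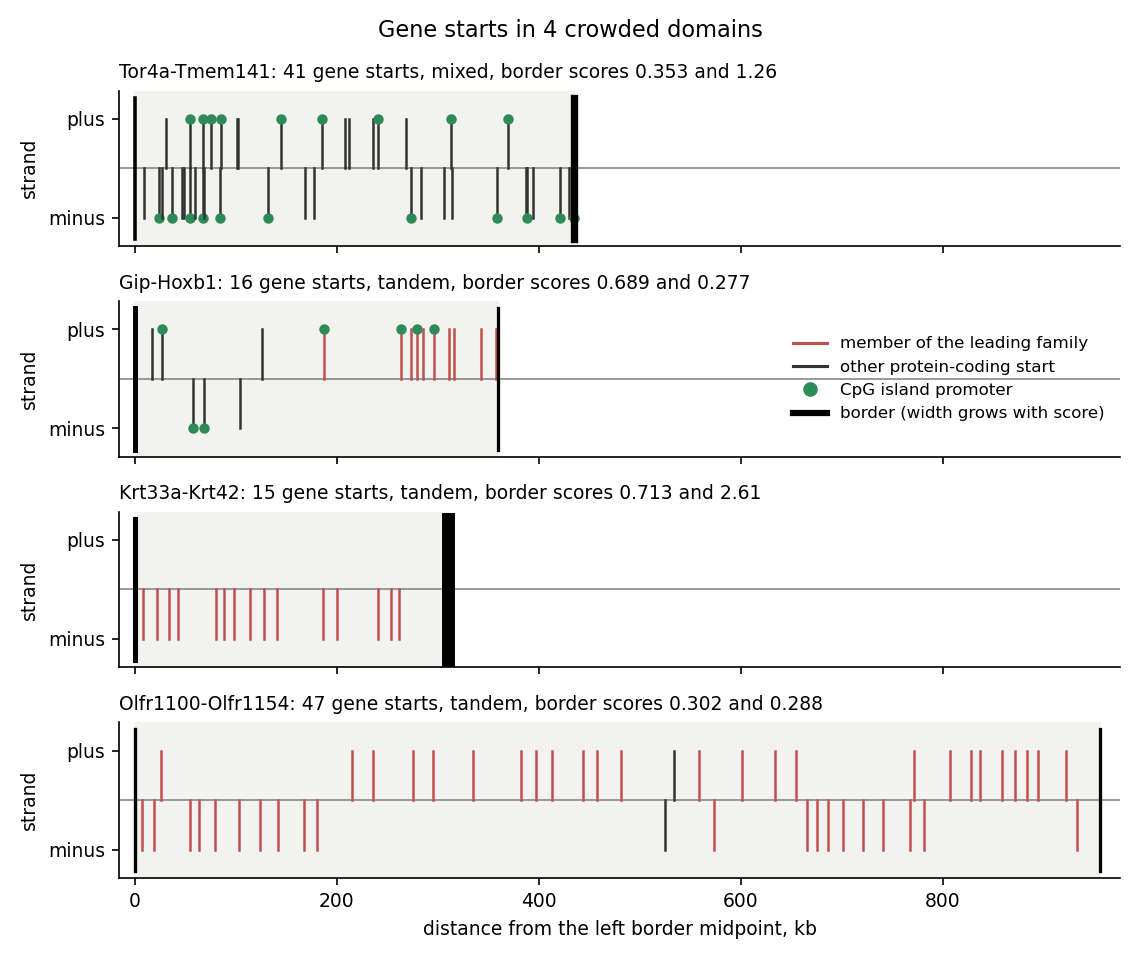
Vertical ticks mark protein-coding gene starts in 4 crowded domains by distance in kb from the left border, upwards for the plus and downwards for the minus strand, in red for the leading family of tandem domains, and green dots mark CpG island promoters. The mixed domain has 20 dots over both strands, the Hoxb domain 7 dots and its Hox genes on a single strand, and the keratin and olfactory receptor domains 0 dots.

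Promoter type differed between the classes. CpG island promoters, meaning a window from 250 bases before to 50 after the start with at least 50% GC and an observed over expected CpG ratio of at least 0.6, stood at 1643 of 3702 starts in mixed domains (44.4%, 95% Wilson interval 42.8 to 46.0%). This was close to the 42.5% of all autosomal starts and to the 44.9% in domains with 5 to 9 starts. In tandem domains they stood at 94 of 1885 starts (4.99%, interval 4.09 to 6.06%), with 13 of 887 in olfactory receptor domains and 81 of 998 in those of other families. Domains mixed by both views had 49.7%. Of the mixed domains, those with a housekeeping list member had 52.1% and those without 35.8%. This gap is partly built in. List members, with CpG islands in 61.3 to 85.3% by list, count in the first group. The 14 domains mixed by symbol and tandem by protein, with 4 of 301 starts, all fall in the second.

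Orientation differed as well. In tandem domains 69.0% of neighbouring starts lay on the same strand (1222 of 1772 pairs, 95% Wilson interval 66.8 to 71.1%), in mixed domains 49.9% (1717 of 3444 pairs, interval 48.2 to 51.5%) and in all domains 52.6%. Pairs of starts that face away from each other within 1 kb, the usual form of a shared bidirectional promoter, occurred in 144 of 258 mixed domains (55.8%) and in 10 of 113 tandem ones (8.85%), against 8.43% of all domains. A domain with more starts has more pairs, and per neighbouring pair the shares were 5.63% in mixed, 1.07% in tandem and 4.73% in all domains. Domains with 5 to 9 starts had 5.61%, nearly the mixed share. Of the 10 tandem domains with such a pair, 2 were olfactory receptor domains. Genes were short in both, with a median over domains of 10.3 kb in mixed and 6.07 kb in tandem ones, against 18.6 kb in domains with 5 to 9 starts. Pseudogenes, the disabled copies that accompany duplication, had a median of 6 starts per tandem and 1 per mixed domain. The median GC content was 48.3% in mixed and 40.5% in tandem domains, and 42.6% in all domains.

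**Figure D3:**
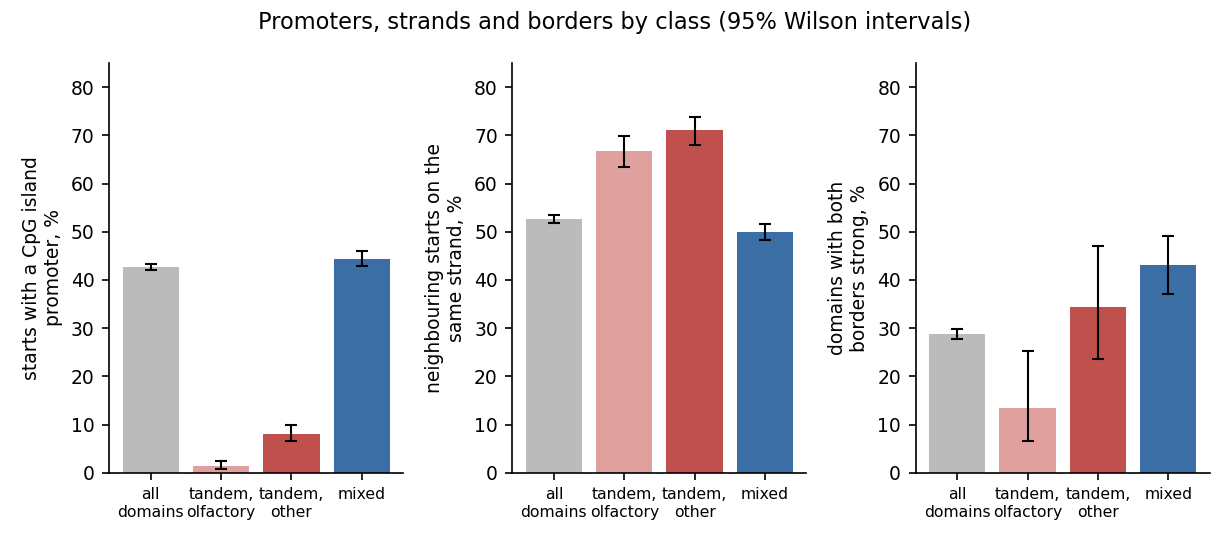
Bars give, for all autosomal domains and 3 kinds of crowded domain, the share of starts with a CpG island promoter, of neighbouring starts on the same strand and of domains with both borders strong, in percent, with 95% Wilson intervals. The CpG bars are 42.7, 1.47, 8.12 and 44.4%, and the bars for both borders strong 28.7, 13.5, 34.4 and 43.0%.

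Border scores of crowded domains were somewhat above those of all domains and not above those of moderately filled ones. The median mean score was 0.692 for crowded domains, 0.636 for all autosomal domains and 0.727 for domains with 5 to 9 starts. Both borders were strong in 149 of 401 crowded domains (37.2%, 95% Wilson interval 32.6 to 42.0%), against a background of 28.7% over all domains and 44.9% in those with 5 to 9 starts. Neither was strong in 60 (15%), against 21.0% over all domains. Within crowded domains the mean score showed no steady order with the number of starts. It was 0.712 at 10 to 11 starts, 0.652 at 12 to 14, 0.745 at 15 to 19 and 0.685 at 20 or more.

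By class, mixed domains had a median mean score of 0.707 and both borders strong in 111 of 258 (43.0%, interval 37.1 to 49.1%). Tandem domains had 0.632 and 28 of 113 (24.8%, interval 17.7 to 33.5%). The lower tandem value came with the olfactory receptors, whose 52 domains had a median mean score of 0.415. The 61 tandem domains of other families had 0.766, and both borders were strong in 21 of them (34.4%, interval 23.7 to 47.0%). The borders of a domain were often unequal. The weaker border had a median score of 0.464 in mixed, 0.385 in non-olfactory tandem and 0.287 in olfactory domains, and the stronger border 0.908, 1.1 and 0.607. Tandem domains of other families thus paired the highest median stronger border with an intermediate weaker one.

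Border scores of tandem domains differed with the place of the border in the array. A border was counted as inside the array where the nearest starts on both sides belonged to the leading family, and at the array edge where only the inner one did. In the remaining cases the inner start was not of the family, whatever lay beyond the border. The split rests on these nearest starts alone, so the family could resume across a border. Beyond the left border of the domain that starts at Hbb-bt, for example, the nearest start was Olfr67. The array edge at Olfr603 faced Usp17lc, which opens another olfactory receptor domain. The 78 borders inside arrays had a median score of 0.340, and 22 of them were strong (28.2%, 95% Wilson interval 19.4 to 39.0%). The 57 borders at array edges had a median of 0.972, and 42 were strong (73.7%, interval 61 to 83.4%). The 64 remaining borders, with an inner start outside the family, had a median of 0.703, and 70.3% were strong. Over all 7410 autosomal boundaries the median was 0.548 and 53.9% were strong. That boundaries within olfactory receptor clusters score low was already known from these data, so the 49 inside borders of that family (median 0.323, 20.4% strong) add no independent support.

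The same order was seen in the other families. Their 29 inside borders had a median of 0.457 with 12 strong (41.4%, interval 25.5 to 59.3%), and their 40 array edges 0.934 with 30 strong (75%, interval 59.8 to 85.8%). Weak inside borders split the vomeronasal receptors between Vmn1r167 and Vmn1r168 (0.237), the prolactins between Prl7a1 and Prl7a2 (0.225), the serpins between Serpina5 and Serpina3a (0.486) and the kallikreins between Klk5 and Klk4 (0.333). Of the 12 strong inside borders, the highest lay between Ly6c1 and Ly6c2 (1.65), between Vmn1r177 and Vmn1r178 (1.29) and between Apol7e and Apol9b (1.22). In all, 3 of the 196 distinct borders of tandem domains fell under a different heading for each of their neighbouring domains and were counted under both.

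**Figure D4:**
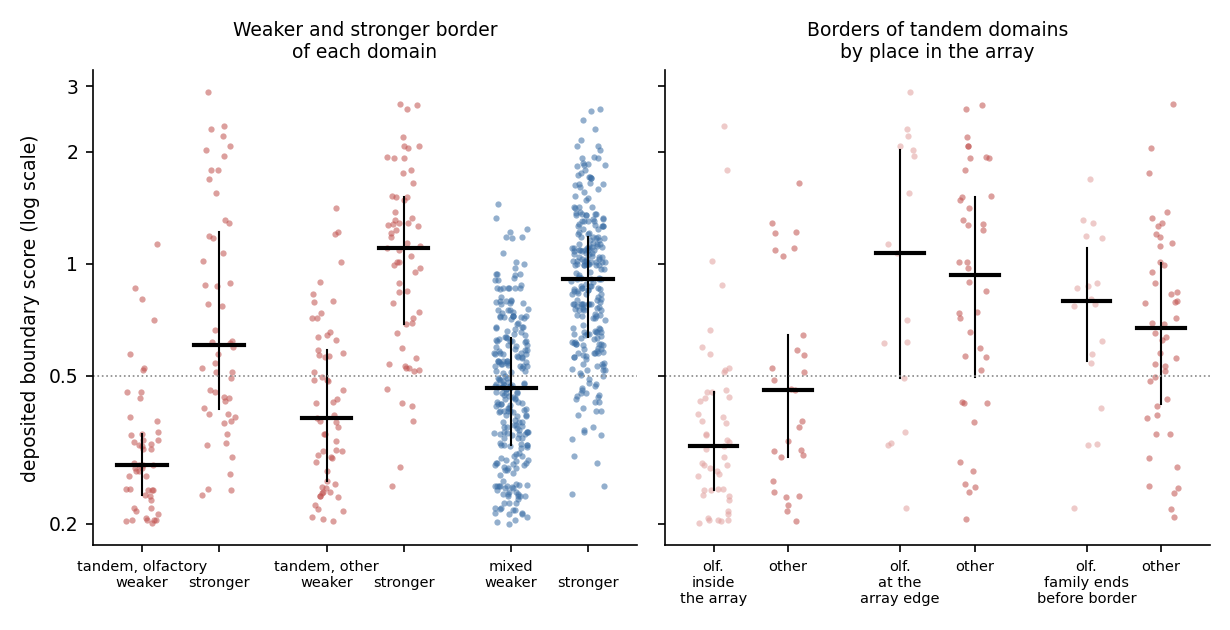
Points are deposited boundary scores on a log scale, at the left the weaker and the stronger border of each tandem or mixed domain, at the right the borders of tandem domains by their place in the array, for olfactory receptors and other families; black bars give medians and quartiles and the dotted line the score of 0.5 at which the strong class begins. Inside arrays the medians are 0.323 and 0.457, at array edges 1.07 and 0.934.

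Borders of mixed domains had like medians next to crowded and other neighbours. Those shared with another crowded domain had a median of 0.635 (87 boundaries, 67.8% strong) and the others 0.641 (367 boundaries, 66.2% strong). The 21 that faced a domain without any protein-coding start had 0.870 and 81.0% strong. A CpG island start lay within 10 kb of 195 of the 454 borders of mixed domains (43.0%), of 23 of the 196 of tandem domains (11.7%) and of 20.5% of all autosomal boundaries. The rule picks domains dense in starts, so starts of any kind were also more frequent there. A start of any kind lay within 10 kb of 308 mixed borders (67.8%), 106 tandem borders (54.1%) and 32.2% of all autosomal boundaries. Mixed borders with a CpG island start had a median score of 0.647, those with other starts alone 0.648 and those with none 0.614. Over all autosomal boundaries the corresponding medians were 0.661, 0.621 and 0.491. Starts of mixed domains within 10 kb of their border had a CpG island in 53.7% (189 of 352), and those farther inside in 43.4% (1454 of 3350). Over all autosomal domains these shares were 59.7% and 39.7%, a wider gap than in mixed domains.

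Gene starts were spread along most of the length of crowded domains. Many starts in a domain favour a wide span by themselves, and no expected span was computed. The outermost start lay a median of 9.46 kb from the border in mixed and 15 kb in tandem domains, and was within 10 kb at 262 of 516 mixed and 80 of 226 tandem domain ends (50.8 and 35.4%). Starts spanned a median of 90.1% of the length of mixed and 91.1% of tandem domains, with a median spacing of 16 and 21.5 kb. The outermost 10% of the length at each end held 22.2% of the starts of mixed and 20.9% of those of tandem domains. The innermost 10% on each side of the middle held 19.8 and 18.4%, so the spread was nearly even.

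CTCF core motifs gave no single order between the classes. Exact matches to the core on either strand were present in the boundary interval of 5 kb at 8.41% of tandem border sides (19 of 226, 95% Wilson interval 5.45 to 12.8%) and 5.43% of mixed ones (28 of 516, interval 3.78 to 7.73%). All autosomal boundaries gave 7.07% and all assembled 5 kb bins 2.47%. With the interval extended by 10 kb on each side the order turned, to 20.4% of tandem and 31.4% of mixed sides. A border shared by neighbouring domains of a class is counted for each of them here. As distinct borders, the 196 tandem and 454 mixed ones gave 21.9 and 30.4%. All boundaries gave 26.7% and bins 11.3% in this window. Among domains with at least 90% unique sequence, as measured below, cores were near 15 of 40 tandem sides (37.5%). They were near 142 of 426 mixed sides (33.3%), so the lower tandem share was not seen in this subset. Most olfactory receptor domains drop out of it, as their unique share had an upper quartile of 86.3%. Families and unique sequence thus change together in this subset. Over all tandem domains in this wider window, cores were near 8 of 78 borders inside arrays (10.3%, interval 5.29 to 19%) and 15 of 57 array edges (26.3%, interval 16.6 to 39.0%). They were near 20 of the 64 borders with an inner start outside the family (31.2%, interval 21.2 to 43.4%). The inside value was 3 of 49 for olfactory receptors (6.12%, interval 2.10 to 16.5%) and 5 of 29 for other families (17.2%, interval 7.6 to 34.5%). For other families the array edges gave 11 of 40 (27.5%, interval 16.1 to 42.8%), and these intervals overlap. A match describes the reference sequence only, and binding was not measured.

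Repeated sequence moved with length and class. It was measured as the share of sampled 50-base words that occur once in the reference, since reads from repeated words cannot be placed and leave gaps in a contact matrix. The median was 82.0% in tandem, 95.2% in mixed and 93.4% in all domains. Domains over 3000 kb had low values, 11.4% for the Vmn1r domain of 3560 kb, 27.2% for the Gm array of 3745 kb from Dydc1 to Gm8267, 22.6% for the zinc-finger and Gm array of 3505 kb from Gm14444 to Phactr3, and 20.4% for the Vmn2r domain. Shorter ones could be as low, with 22.4% for the mixed domain of 1325 kb from Cntfr to Vcp. Among domains with at least 90% unique sequence, 20 tandem domains had a median length of 285 kb and 213 mixed ones 270 kb. Their median mean scores were 0.723 and 0.704, and both borders were strong in 50% (95% Wilson interval 29.9 to 70.1%) and 44.1% (interval 37.6 to 50.8%). The condition leaves out most olfactory receptor domains, whose unique share had an upper quartile of 86.3%, so the tandem families differ as well. Without this condition the median lengths were 385 kb for the 113 tandem and 295 kb for the 258 mixed domains. Array edges and inside borders with at least 90% unique sequence around them kept their order, with medians of 1.01 and 0.455. Of the edges 24 of 31 were strong (77.4%), and of the inside borders 11 of 26 (42.3%). For families other than olfactory receptors these were 17 of 22 (77.3%) and 7 of 15 (46.7%). The counts are small and no intervals were computed for them. The part of repeated sequence in the domain lengths was not tested.

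**Figure D5:**
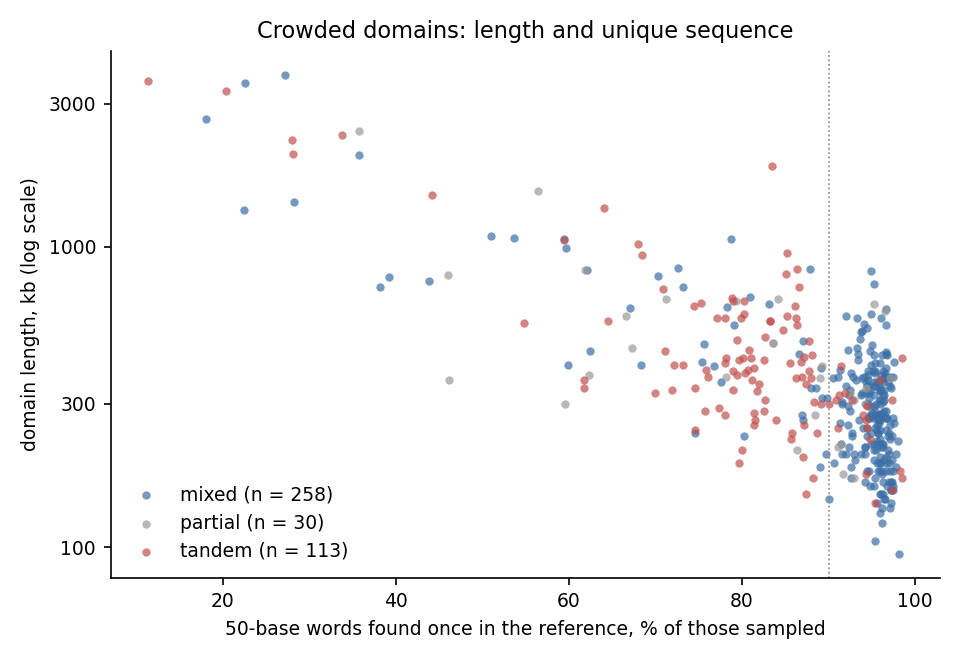
Each point is a crowded domain, with the percent of sampled 50-base words found once in the reference on the horizontal axis and length in kb on a log scale on the vertical axis, coloured by class; the dotted line marks 90%. The domains over 3000 kb lie between 11.4 and 27.2% unique sequence.

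Of the 401 crowded domains, 201 lay in 75 runs of 2 or more in a row, and 200 stood alone. Crowded domains were 5.43% of all autosomal domains. How many runs the uneven gene density along chromosomes would give was not computed. The longest run, of 10 domains over 3635 kb on chromosome 7, held 164 starts from the zinc-finger genes around Zfp936 through the kallikreins to Nomo1. Its inner borders scored from 0.333 to 1.01. The 7 domains at its right end were all mixed, with 12 to 22 starts in 165 to 335 kb, and included Nup62 (nuclear pore), Prmt1 (arginine methylation), Gys1 (glycogen synthesis), Ruvbl2 (chromatin remodelling) and Rpl18 (ribosome).

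Runs of olfactory receptor domains varied in where their high scores stood. Across 4 domains from Olfr544 to Olfr620 on chromosome 7, the scores from left to right were 2.35, 0.435, 0.387, 0.325 and 0.205. From Olfr922 to Zfp202 on chromosome 9 they were 0.457, 0.335, 0.394, 0.269 and 0.889. From Olfr1100 to Olfr1232 on chromosome 2 they were 0.302, 0.288, 1.79, 0.524 and 0.203. There the highest score stood within the run, between Olfr1177-ps and Olfr1178. The score of 2.35 at the left end of the Olfr544 run also stood inside the array, between Olfr543 and Olfr544. Keratin genes on chromosome 11 gave another pattern, with scores of 0.285, 0.209, 0.250 and 0.713 along the keratin-associated proteins and 2.61 between Krt42 and Eif1, where the mixed neighbours begin.

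Genes that mark the sorted cells were located too, beside the 29.2% of all autosomal gene starts that lay in crowded domains. Of 27 located regulators and markers of the precursors, 2 lay in crowded domains. Tubb3, a tubulin of young neurons, started 21.1 kb from the nearer border of a mixed domain with 10 starts (215 kb, scores 0.409 and 0.22). Ezh2, the methyltransferase of Polycomb repression, lay in the tandem domain of Zfp genes from Cul1 to Zfp746 (810 kb, 0.301 and 1.23). Of 21 located markers of other cells of the epithelium, 5 did. The basal cell keratins Krt5 and Krt14 were in the keratin domains, and Icam1, Cyp1a2 and Cd68 in mixed domains with 15, 13 and 12 starts. These are locations only, and the purity of the sort was not examined here.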

How the data were processed

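In situ Hi-C was made from 2 replicates of sorted precursors. Per the series' design text the authors combined both contact lists and called boundaries on the combined matrix, and the build is GRCm38 per the submitters' processing notes. Caller and window: not given in the sources used here. Deposited by the authors were 7841 intervals of 5 kb, each marked strong or weak and with a score, and these scores were not tested. Contact matrices, insulation and compartment tracks were not analysed here. Genes were from GENCODE M21 and sequence from GRCm38. Domains, classes, CpG islands, strands, CTCF cores and unique 50-base words (1 in 32 sampled) were computed with Python 3.11.15, numpy 2.4.6 and scipy 1.17.1, and proteins compared with blastp 2.17.0 (e-value at most 1e-10). In crowded domains 9 symbols occurred at more than a single gene record, and each record was counted. Wilson 95% intervals cover counting error only and take domains, starts or border sides as independent. The code for domains, classes and intervals was tested on simulated data. Domains named were the 10 with the most starts, for each class the 3 with the most starts, longest, shortest, and of highest and lowest mean score, and the fullest domain of each leading family, with their end genes, border genes and listed genes. Lineage genes in any crowded domain were named too. Further genes of these domains, runs, density extremes and further single borders and domains were chosen after their values were seen. Members and lists were chosen with earlier results of these data known. Some named domains and sequences are not reported here.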

Additional observations from a re-analysis of the deposited data

How the results depend on the processing

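Of 51 values recomputed under an alternative, 33 stayed within the 95% interval of the value reported, or within 1.5 times of it for counts. With 8 or more starts there were 631 crowded domains of median length 305 kb. With 15 or more there were 148, of median length 385 kb and with 39.2% tandem. With strong boundaries alone, which makes both borders strong in 100% by construction, the median length was 535 kb, the median border score 0.933 and the tandem share 17.9%. The tandem share was 35.7% with a family threshold of 30% and 21.4% with 70%. The CTCF core share was 20.4% for tandem and 31.4% for mixed border sides with 10 kb added on each side. CpG promoter shares with 500 bases on each side were 6.74% (tandem) and 46.2% (mixed). Chosen after seeing the data, classes that symbols and proteins share gave CpG shares of 3.49% and 49.7%, and tandem domains with at least 90% unique sequence a median length of 285 kb. Leaving out boundary intervals or predicted genes, or adding chromosome X, moved none of the 5 summary values beyond these limits. No paired analysis was possible because the series has a single group. Replicate error and depth are unknown, since boundaries were called on the combined matrix, and 16 crowded domains were under 95% assembled.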
